A study of Mus musculus with 10 samples.

Results

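The cells described here were a stromal state of the mouse axillary lymph node, a subset of collagen-expressing cells that also held transcripts of Smpd3, Duox2, Mrgprg and Rgs6. They came from droplet single-cell RNA sequencing, in which each transcript molecule is counted once through its unique molecular identifier (UMI). A cell was a member where it had at least 5 UMIs of Col1a1, Col1a2, Col3a1 and Dcn together, no UMI of Ptprc (the leukocyte antigen CD45) or Pecam1 (the endothelial adhesion molecule CD31), and at least 3 UMIs of Mrgprg, Smpd3, Duox2 and Rgs6 together from at least 2 of these genes. Of 9070 cells that passed the filters on depth and mitochondrial share in the 2 libraries used, 1244 passed the collagen, Ptprc and Pecam1 gates with a condition assigned, and 402 of these were members. The other 842 gated cells were the comparison group. Members numbered 262 of 833 gated cells in the stromal library and 140 of 411 in the myeloid and stromal library (the second library).

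All mice were 8-week-old BALB/c females of wild-type genotype. The 67NR and 4T1 groups carried tumours of these mouse mammary carcinoma lines, of which 4T1 is known to metastasise and 67NR is not, injected into the 4th mammary pad and grown for 18 days to 500 mm3. LPS mice were injected under the skin with lipopolysaccharide, a bacterial wall component that signals through Tlr4, and were killed after 72 hours. Naive mice were untreated. Nodes were sorted and at least 3 mice were used per condition, but no label ties a cell to a mouse, and each condition had 1 hashtag (an antibody-borne barcode) in each library. The stromal library held all 4 conditions and the myeloid and stromal library held 67NR, 4T1 and naive. Each condition therefore gave 1 sum of cells per library, and nothing says that the libraries came from separate mice, so p-values measure only the spread between these sums, which may be technical.

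Smpd3 encodes a neutral sphingomyelinase, which splits the membrane lipid sphingomyelin into ceramide and phosphocholine. Duox2 and its relative Duox1 encode membrane oxidases that release hydrogen peroxide, and each needs a maturation factor, Duoxa2 or Duoxa1, to leave the endoplasmic reticulum. Mrgprg encodes an orphan member of the Mas-related G protein-coupled receptors, Rgs6 a regulator that shortens G protein signals, and Fn1 fibronectin, an extracellular matrix glycoprotein bound by integrins. Dpp4 and Pi16 mark adventitial fibroblasts, which lie around vessels and in connective tissue sheaths, while Ccl19 and Ccl21a mark the T-zone reticular cells that guide lymphocytes.

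Of the 4 rule genes, Smpd3 lies on chromosome 8 (chr8:106252548-106337988, minus strand), Mrgprg on chromosome 7 (chr7:143763710-143766993, minus strand), and Rgs6 on chromosome 12 (chr12:82588292-83162056, plus strand), in the GENCODE annotation of mm10. Duox2 lies on chromosome 2 (chr2:122279247-122298449, minus strand) beside Duoxa2 (chr2:122298900-122302885, plus strand), with Duox1 further along (chr2:122315672-122347972, plus strand). The oxidase and factor genes form 2 head-to-head pairs. In RefSeq on GRCm38.p6 the starts of Duox2 and Duoxa2 are 673 bases apart and those of Duoxa1 and Duox1 are 1942 bases apart. The promoter windows of these 4 genes are shown because all 4 genes were higher in members, and those of Mrgprg and Rgs6 because they chose the cells. Each window runs from 250 bases before to 50 bases after the RefSeq start, 5′ to 3′ on the gene's strand, and capitals mark matches, on either strand, to TGANTCA (the binding motif of AP-1 factors), CACGTG (an E-box), TATAAA (a core promoter element) or GGGCGG (the motif of Sp1 factors).
Duox2: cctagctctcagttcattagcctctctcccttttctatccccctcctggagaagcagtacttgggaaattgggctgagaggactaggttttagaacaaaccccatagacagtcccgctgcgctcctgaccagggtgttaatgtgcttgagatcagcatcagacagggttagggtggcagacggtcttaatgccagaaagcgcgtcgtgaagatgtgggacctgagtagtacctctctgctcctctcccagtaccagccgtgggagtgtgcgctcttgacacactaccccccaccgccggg
Duoxa2: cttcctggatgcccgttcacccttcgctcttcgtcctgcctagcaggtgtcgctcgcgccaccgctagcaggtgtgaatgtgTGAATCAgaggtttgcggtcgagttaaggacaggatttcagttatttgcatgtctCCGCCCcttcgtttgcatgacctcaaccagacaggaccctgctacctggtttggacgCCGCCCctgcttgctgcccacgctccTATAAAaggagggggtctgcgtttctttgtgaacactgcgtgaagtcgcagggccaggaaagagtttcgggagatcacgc
Duoxa1: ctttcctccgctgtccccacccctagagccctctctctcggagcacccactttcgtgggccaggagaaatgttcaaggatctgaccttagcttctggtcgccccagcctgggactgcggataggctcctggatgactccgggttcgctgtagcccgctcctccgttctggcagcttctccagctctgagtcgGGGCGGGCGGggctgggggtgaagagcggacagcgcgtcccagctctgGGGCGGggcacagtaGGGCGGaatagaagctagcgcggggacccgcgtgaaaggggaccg
Duox1: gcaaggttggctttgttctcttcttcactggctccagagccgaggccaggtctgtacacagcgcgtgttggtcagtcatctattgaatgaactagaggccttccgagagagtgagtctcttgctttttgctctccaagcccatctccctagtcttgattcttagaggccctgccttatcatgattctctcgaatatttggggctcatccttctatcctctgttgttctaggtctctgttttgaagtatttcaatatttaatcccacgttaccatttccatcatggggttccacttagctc
Mrgprg: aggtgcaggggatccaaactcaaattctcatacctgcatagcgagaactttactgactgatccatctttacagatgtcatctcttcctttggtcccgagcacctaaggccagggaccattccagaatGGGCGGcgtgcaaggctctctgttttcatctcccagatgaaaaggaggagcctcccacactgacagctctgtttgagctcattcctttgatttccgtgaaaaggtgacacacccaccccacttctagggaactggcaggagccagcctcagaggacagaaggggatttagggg
Rgs6: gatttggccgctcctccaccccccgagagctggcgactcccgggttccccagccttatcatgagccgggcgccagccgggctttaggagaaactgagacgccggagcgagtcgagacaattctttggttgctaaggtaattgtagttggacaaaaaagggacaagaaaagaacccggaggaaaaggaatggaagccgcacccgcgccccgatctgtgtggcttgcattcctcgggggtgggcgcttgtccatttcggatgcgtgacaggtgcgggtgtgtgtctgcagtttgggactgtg

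These windows are chr2:122298178-122298477 for Duox2, chr2:122298650-122298949 for Duoxa2, chr2:122313681-122313980 for Duoxa1, chr2:122315422-122315721 for Duox1, chr7:143766944-143767243 for Mrgprg and chr12:82617249-82617548 for Rgs6. Duoxa2 held 1 TGANTCA, 1 TATAAA and 2 GGGCGG matches. Duoxa1 held 4 GGGCGG matches, of which the first 2 overlap, and Mrgprg held 1. The windows of Duox2, Duox1 and Rgs6 held none of these motifs. Among all 32851 promoter windows of the table, 7.81% hold TGANTCA, 7.15% CACGTG, 13.6% TATAAA and 35.7% GGGCGG. A match is a run of letters and does not show binding.

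Gene UMIs totalled 36622159 in the stromal library and 94930947 in the myeloid and stromal library. Median UMIs per cell were 17739 in members and 13758 in the other gated cells of the stromal library, and 17315 in members and 12947 in the other gated cells of the myeloid and stromal library. The 2 libraries shared 6 cell barcodes, none of them members in both. The other 3 gene libraries held 0 cells that passed the gates and the rule.

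Members stood apart in their hashtags, which assign the condition. In 67NR the median count of the strongest hashtag was 379 in members and 1850 in the other gated cells of the stromal library, and 325.5 in members and 965 in the other gated cells of the myeloid and stromal library. It was also lower in the members of every other condition, at 626 in members against 2324 in the other cells for 4T1, 2588 against 4785 for LPS and 311 against 926 for naive in the stromal library, and at 326 against 1073 for 4T1 and 485 against 608 for naive in the myeloid and stromal library. Gated cells to which no condition could be given met the marker rule more often than those with one. They did so in 47 of 74 cells of the stromal library (63.5%, exact 95% interval 51.5 to 74.4%) and in 178 of 236 of the myeloid and stromal library (75.4%, 69.4 to 80.8%), against 31.45% and 34.06% of gated cells with a condition. Many cells of this state are thus outside every comparison of conditions, in the myeloid and stromal library more of them than the 140 that stayed.

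The label calls the state enriched in 67NR nodes, and its share was highest in 67NR in the stromal library but not in the other. In the stromal library members made up 166 of 362 gated cells in 67NR (45.9%, exact Clopper-Pearson 95% interval 40.6 to 51.1%), 31 of 114 in 4T1 (27.2%, 19.3 to 36.3%), 48 of 227 in LPS (21.1%, 16.0 to 27.0%) and 17 of 130 in naive nodes (13.1%, 7.81 to 20.1%). In the myeloid and stromal library they made up 58 of 185 gated cells in 67NR (31.4%, 24.7 to 38.6%), 59 of 120 in 4T1 (49.2%, 39.9 to 58.5%) and 23 of 106 in naive nodes (21.7%, 14.3 to 30.8%). The share was higher in both tumour groups than in naive nodes in both libraries, while the order of 67NR and 4T1 turned between them. These intervals, like all intervals below, cover counting error only, and because the state was proposed for its share in 67NR the shares are a description without a test. With a hashtag required at 10 times the next, in place of 3, members were 26.9% in 67NR, 19.3% in 4T1, 21.0% in LPS and 4.94% in naive nodes of the stromal library. In the second library that stricter rule gave 10.1% in 67NR, 24.5% in 4T1 and 12.5% in naive nodes, so that 67NR then lay below naive. How far hashtag strength moved the shares was not tested beyond this.

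**Figure D1:**
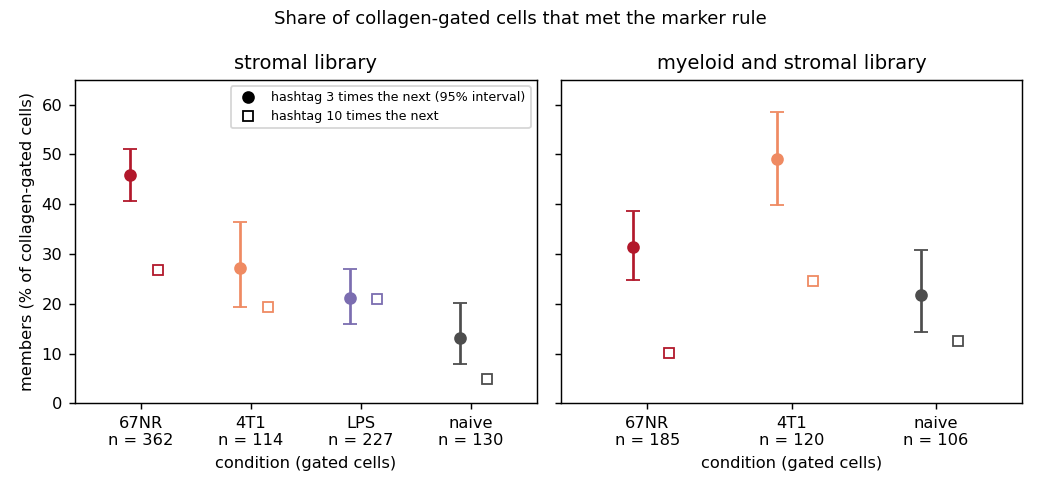
Members as a percentage of collagen-gated cells (y axis) by condition (x axis, with the number of gated cells) in each library; filled circles use a hashtag 3 times the next with exact 95% intervals and open squares a hashtag 10 times the next. Members were 45.9% in 67NR and 27.2% in 4T1 in the stromal library, but 31.4% in 67NR and 49.2% in 4T1 in the myeloid and stromal library.

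The 4 rule genes separated most cells widely in 67NR and less so in LPS. The median sum of their UMIs in a member of the stromal library was 74 in 67NR, 48 in 4T1, 22.5 in LPS and 31 in naive nodes, and in the myeloid and stromal library it was 59.5 in 67NR, 63 in 4T1 and 30 in naive nodes. Few cells lay at the threshold. At exactly 3 UMIs, just inside, were 0 members in 67NR, 1 in 4T1, 1 in LPS and 0 in naive nodes of the stromal library, and 0 in each condition of the other library. Just outside, with 2 UMIs, were 8 cells in 67NR, 1 in 4T1, 12 in LPS and 3 in naive nodes of the stromal library, and 3 in 67NR and 0 in both 4T1 and naive nodes of the other library. A further 18 stromal-library cells in 67NR and 40 in LPS had 3 or more UMIs but from 1 gene alone. All 4 genes were seen in 107 of 166 members in 67NR and in 6 of 48 in LPS.

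**Figure D2:**
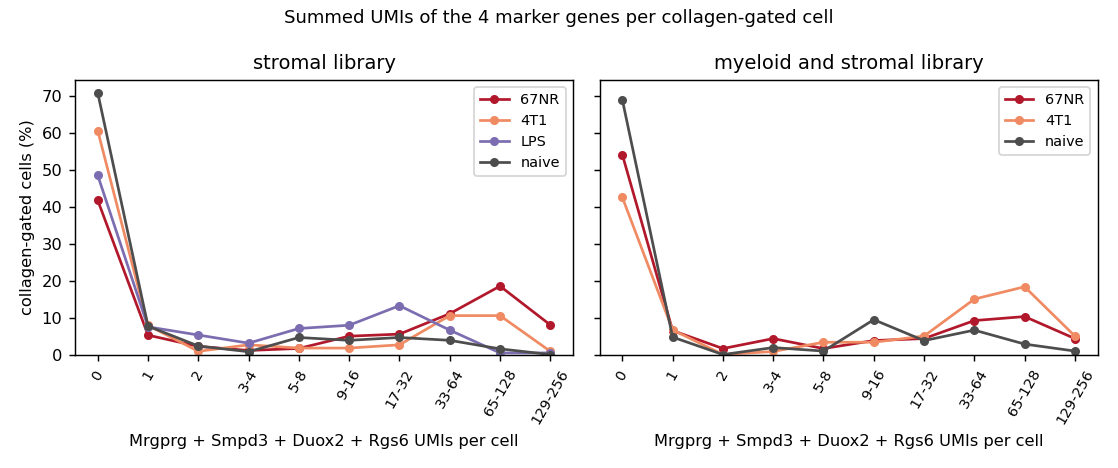
Percentage of collagen-gated cells (y axis) in bins of the summed UMIs of Mrgprg, Smpd3, Duox2 and Rgs6 per cell (x axis), one line per condition, in each library. Most cells had no UMI of the 4 genes or had 10 or more, with a median of 74 in 67NR members and 22.5 in LPS members of the stromal library.

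The 4 genes chose the cells, so their levels are given as a description, in CPM (a gene's UMIs as a part of all UMIs in the summed cells, scaled to 1000000). Smpd3 stood at 2775 CPM in 67NR members, 1960 in 4T1, 953 in LPS and 1111 in naive members of the stromal library, and at 2265 in 67NR, 2082 in 4T1 and 1478 in naive members of the myeloid and stromal library. With the stricter hashtag rule the order of 67NR and 4T1 turned in the second library, where Smpd3 stood at 1675 CPM in 67NR and 1995 CPM in 4T1 members. Duox2 stood at 220 CPM in 67NR, 111 in 4T1, 19.4 in LPS and 81.8 in naive members of the stromal library, and at 231 in 67NR, 142 in 4T1 and 78.7 in naive members of the other library. The 2 libraries gave Duox2 the same order of 67NR, 4T1 and naive, though the gene itself chose the cells. With the stricter hashtag rule it stood at 131 CPM in 4T1 members of the stromal library and at 119 CPM in the 4 naive members left. Mrgprg stood at 1210 CPM in 67NR, 739 in 4T1, 267 in LPS and 600 in naive members of the stromal library, and at 1009 in 67NR, 1102 in 4T1 and 573 in naive members of the other. Rgs6 stood at 657 CPM in 67NR, 351 in 4T1, 214 in LPS and 337 in naive members of the stromal library, and at 411 in 67NR, 468 in 4T1 and 430 in naive members of the other, where the conditions lay close together.

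A UMI of Mrgprg, Duox2 or Rgs6 was rare outside the members, and one of Smpd3 less so. In 67NR cells of the stromal library Mrgprg was detected in 91.6% of members and 2.04% of the other gated cells, and in 0 of 16 cells with Ptprc UMIs (exact upper limit 20.6%). In 67NR cells of the second library it was detected in 93.1% of members and 3.15% of the other gated cells, and in 34 of 1380 cells with Ptprc UMIs (2.46%), so that its share in other gated cells was close to that in Ptprc cells. Duox2 was detected in 76.5% of 67NR members and 1.53% of the other gated 67NR cells of the stromal library. Smpd3 was detected there in 100% of members and 17.9% of the other gated cells. In the stromal library median depth was 17170 UMIs in members, 12852 in the other gated cells and 9932 in the Ptprc cells. When each rule gene was left out and cells were chosen by at least 2 UMIs from at least 2 of the other 3, it was again higher in the chosen 67NR cells than in the other gated cells. Its level in chosen and other cells of the stromal library was 222 against 2.67 CPM for Duox2 (log2 ratio 6.38, 5.33 to 7.70), 667 against 7.21 CPM for Rgs6 (6.53, 5.88 to 7.27), 1238 against 51.8 CPM for Mrgprg (4.58, 4.34 to 4.83) and 2948 against 240 CPM for Smpd3 (3.62, 3.51 to 3.74). In the myeloid and stromal library the log2 ratios were 7.12 for Duox2, 5.02 for Rgs6, 4.94 for Mrgprg and 4.24 for Smpd3.

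Genes outside the rule also differed between members and the other gated cells. The other gated cells were a mixed group that held cells with Ccl19 and Ccl21a as well as cells with Dpp4 and Pi16. All genes of the chosen cells count as used by the choice, so these contrasts carry no test. In 67NR, 500 of 7276 genes with enough UMIs were at least 2-fold higher in members in both libraries (6.87%) and 603 were at least 2-fold lower (8.29%), each with a 95% interval that excluded no change. Fn1, on chromosome 1 (chr1:71585520-71653200, minus strand), stood at 12104 CPM in members and 1434 CPM in the other cells of the stromal library, and at 12165 CPM in members and 1570 CPM in the other cells of the myeloid and stromal library. Its log2 ratios were 3.08 (3.03 to 3.13) and 2.95 (2.90 to 3.01). Every one of the 166 members in 67NR had Fn1 UMIs, with a median of 183, but 85.7% of the other gated cells had them too, so Fn1 set members apart by its level and not by its presence.

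Duox2 was accompanied by the other 3 genes of its locus. Duoxa2, the Duox2 maturation factor, stood at 69.8 CPM in 67NR members and at 0 UMIs in the other cells of the stromal library. With those cells set at a floor of 3 UMIs its log2 ratio was 5.90, and the lower 95% limit was 5.59. In the myeloid and stromal library Duoxa2 stood at 34.5 CPM in members and 1.07 CPM in the other cells. Duoxa2 was detected in 37.95% of 67NR members of the stromal library. Duox1, the second oxidase, stood at 161 CPM in members and 5.06 CPM in the other cells of the stromal library, and at 172 CPM in members and 4.82 CPM in the other cells of the myeloid and stromal library. Duoxa1, its factor, had log2 ratios of 3.55 in the stromal and 4.23 in the myeloid and stromal library. Of 20 measured genes of a list of NADPH oxidases and peroxide handling, 4 were higher (Duox1, Duoxa1, Duoxa2 and Rac1, a small GTPase that activates oxidases) and 2 lower (Sod2, the mitochondrial superoxide dismutase, and Gpx3, a secreted peroxidase), with list medians of -0.18 in the stromal and 0.07 in the second library. On the rule used for lists, with at least 20 UMIs, 5.83% of 10095 genes were higher in members and 8.64% lower, and the median log2 ratios of all of them were 0.067 in the stromal and 0.033 in the myeloid and stromal library. Of 24 sphingolipid genes besides Smpd3 only Cers6, a ceramide synthase, was higher (log2 2.03 and 1.81), and S1pr1, a sphingosine 1-phosphate receptor (-3.96 and -3.97), Ugcg, Sphk1 and Cers4 were lower, with list medians of 0.11 and 0.09. Of 12 measured RGS genes besides Rgs6, Rgs7, which belongs to the same subfamily, was higher (4.82 in both libraries) and 6 were lower, among them Rgs5, a pericyte gene (-8.37 and -6.34). The one other Mas-related receptor gene past the threshold was Mrgpre (2.57 and 3.30).

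**Figure D3:**
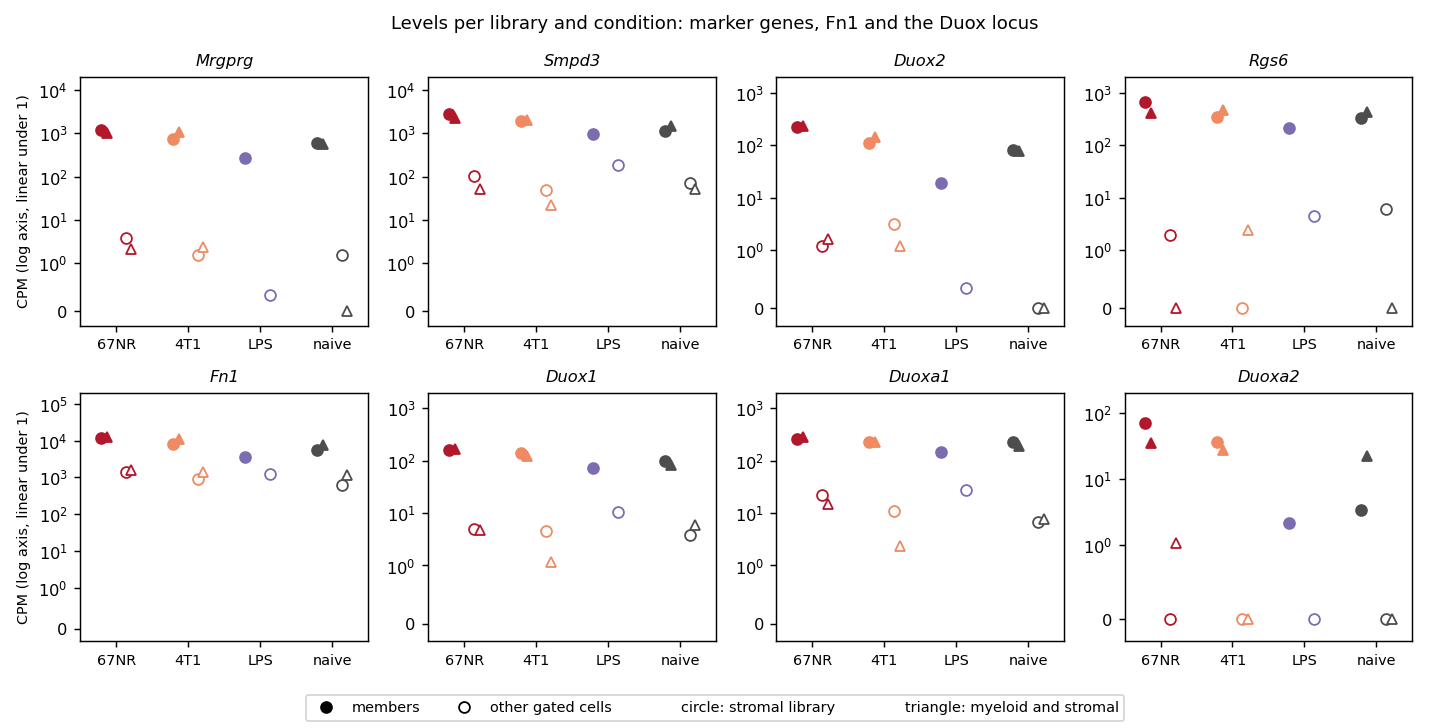
Levels in CPM (y axis, log scale, linear under 1) of the 4 rule genes, Fn1, Duox1, Duoxa1 and Duoxa2 by condition (x axis); filled symbols are members and open symbols other gated cells, circles the stromal and triangles the myeloid and stromal library. Duox2 stood at 220 and 231 CPM in 67NR members and at 81.8 and 78.7 CPM in naive members.

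Genes past 2-fold in both libraries were ordered by the smaller in size of their 2 ratios, leaving out unnamed loci. The 12 highest genes by that order came from several families. Iqgap2, a scaffold protein of the cytoskeleton, had log2 ratios of 7.30 in the stromal and 6.76 in the myeloid and stromal library. Car8, a carbonic anhydrase-related protein that binds the IP3 receptor, had log2 ratios of 5.66 in the stromal and 6.83 in the myeloid and stromal library, where it stood at 183 CPM in members and 1.61 CPM in the other cells. Bmp6, a bone morphogenetic protein (log2 5.99 in the stromal library), stood at 67.1 CPM in members and 0 UMIs in the other cells of the myeloid and stromal library. Pdgfc, a platelet-derived growth factor, stood at 206 CPM in members and 5.83 CPM in the other cells of the stromal library, with log2 ratios of 5.14 in the stromal and 6.61 in the myeloid and stromal library. The rest were Susd4, Islr2, Cntn2, Grm8, Kcnc2, Efhd1, Duoxa2 and Duox1. Islr2, Cntn2, Grm8 (a glutamate receptor) and Kcnc2 (a potassium channel) are known mainly from neurons.

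The 12 lowest genes by the same order were Pcdh15, Ccl19, Adamts17, Dsc3, Dnajc6, Robo2, Rgs5, Tagln, Cxcl5, Frmd5, Clu and Mgp. Ccl19, the T-zone chemokine, stood at 4.75 CPM in members and 1652 CPM in the other cells of the stromal library, and at 21.1 CPM in members and 2369 CPM in the other cells of the myeloid and stromal library. Mgp, a matrix protein that limits calcification, stood at 13.5 CPM in members and 2460 CPM in the other cells of the stromal library, and at 13.4 CPM in members and 924 CPM in the other cells of the myeloid and stromal library. Tagln, a contractile protein of smooth muscle, had log2 ratios of -6.22 in the stromal and -7.92 in the myeloid and stromal library.

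**Figure D4:**
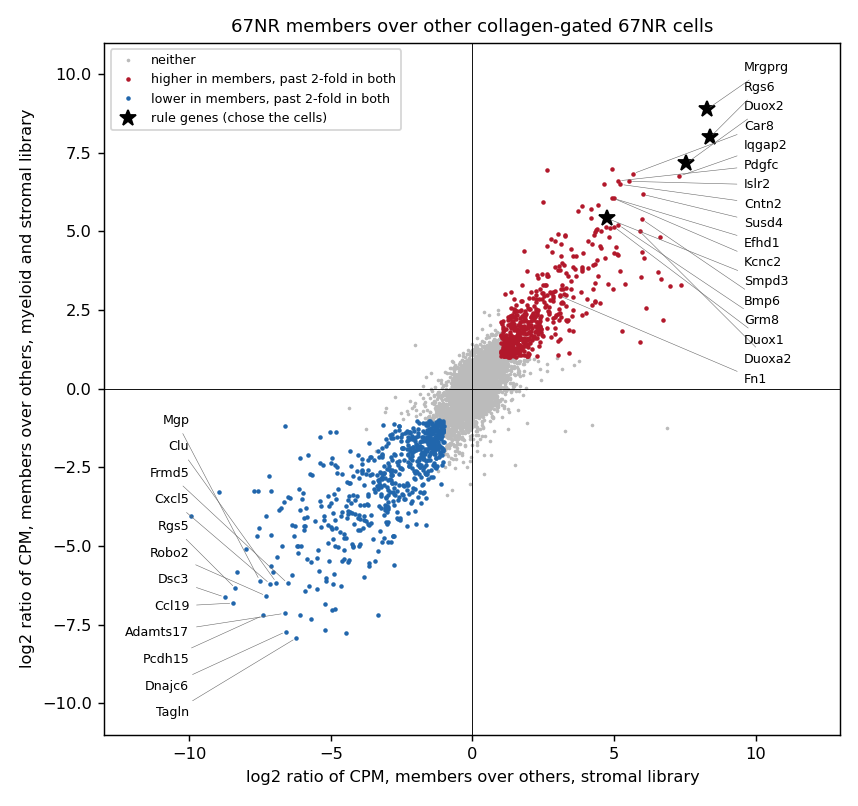
Log2 ratio of CPM, members over other gated cells of 67NR, in the stromal library (x axis) and the myeloid and stromal library (y axis), one point per measured gene. The 500 genes higher past 2-fold in both libraries are red, the 603 lower are blue, and stars mark the rule genes, which chose the cells.

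Members carried the markers of adventitial fibroblasts. All 8 adventitial markers were higher in 67NR members in both libraries, among them Dpp4 (log2 4.44 in the stromal and 5.83 in the myeloid and stromal library), Sema3c (4.22 and 4.62), Anxa3 (4.26 and 3.93) and Pi16 (2.92 and 4.68), and the list's median log2 ratios were 3.03 in the stromal and 4.07 in the second library. Of 10 measured markers of node reticular cells 8 were lower and none higher, with list medians of -5.46 and -3.55. The lower ones included Ccl19 of the T zone (-8.44 and -6.81) and Cxcl13, a chemokine of B-cell follicles (-5.70 and -7.32). Ccl21a was also lower, but near-identical copies of that gene share reads, so its counts are uncertain. All 7 measured pericyte and smooth muscle markers were lower, as were Mgp, Cilp and Ccn5. Of 12 fibroblast markers Thy1, Mfap5 and Postn were higher and Fbln1 and C3 lower. Summed immune markers stood at 55.6 CPM in members and 67.7 CPM in the other cells of the stromal library, and at 326 CPM in members and 450 CPM in the other cells of the myeloid and stromal library. Summed epithelial markers stood at 39.5 CPM in members and 3.11 CPM in the other cells of the stromal library, and at 9.58 CPM in members and 8.04 CPM in the other cells of the myeloid and stromal library. Of the 14 epithelial markers 10 were at 0 in 67NR members of the stromal library, and most UMIs were of Cldn3 (74 UMIs in 36 cells) and Krt19 (31 UMIs in 19 cells). Summed epithelial markers stood at 51.1 CPM in the 17 naive members of the stromal library and at 36.5 CPM in the 23 of the second. They stood at 54.9 CPM in LPS members, and at 12.7 CPM in 4T1 members of the stromal and 16.8 CPM of the second library. The part of epithelial transcripts in the results was not tested.

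Dpp4 and Pi16 were not in the rule, and they nearly contained the state. At least 2 UMIs of the 2 genes together were seen in 95.7 to 100% of members, depending on condition and library. Among gated cells chosen by Dpp4 and Pi16 alone, members were 72.2% of 227 cells in 67NR, 55.6% of 54 in 4T1, 36.6% of 131 in LPS and 44.7% of 38 in naive nodes of the stromal library. In the second library they were 74.7% of 75 cells in 67NR, 98.3% of 59 in 4T1 and 56.4% of 39 in naive nodes. Over all conditions of the stromal library, 96 other gated cells held both genes with at least 3 UMIs together. In these 96 cells and in all members, Fn1 stood at 2381 and 9422 CPM and Sema3c at 521 and 1088 CPM. Duoxa1 stood at 81.1 and 233 CPM, Duoxa2 at 0 and 47.5 CPM and Duox1 at 27.6 and 136 CPM. Mgp was lower in members here too, at 620.5 and 11.3 CPM. Ccl19 was alike in the 96 cells and the members, at 26.4 and 26.8 CPM, unlike its ratio against all other gated cells. The ratios above were taken against all other gated cells together, not against these 96. Across single gated cells of the stromal library, the genes whose log CPM most resembled the summed rule genes were Daglb, a diacylglycerol lipase (Pearson r 0.904 over 833 cells), Anxa3 (0.873), Dpp4 (0.835), Fndc1 (0.826) and Sema3c (0.823). In the 411 cells of the other library these r were 0.890, 0.891, 0.801, 0.838 and 0.853. Cells share a library and differ in depth, so the correlations are a description.

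Matrix genes were divided, some higher and some lower in members. Of 25 matricellular proteins and crosslinkers 10 were higher and 7 lower in 67NR members, with median log2 ratios of 0.74 in the stromal and 0.96 in the second library. The higher ones included Ccn3 (log2 3.14 in the stromal and 3.16 in the myeloid and stromal library), Loxl2, a collagen crosslinker (2.59 and 2.66), Fbn1, fibrillin-1 (2.46 and 3.05), and Vcan, versican (2.25 and 2.84), and the lower ones Tnc, tenascin-C (-5.22 and -6.84), and Thbs4 (-5.44 and -5.78). Of 22 collagen chains outside the gate 7 were higher and 8 lower, with medians of -0.27 and 0.11. Col5a3 (2.48 and 2.86), Col12a1 (2.43 and 1.90), Col14a1 (2.27 and 1.63) and 4 chains of type VI (Col6a1, Col6a2, Col6a5 and Col6a6) were higher, and Col15a1, a basement membrane collagen (-4.54 and -5.41), and Col4a2 (-1.30 and -2.20) were lower. Of 21 genes for fibronectin, its receptors and its assembly, Fn1, Itga11, Itgb3, Itgb5 and Zyx were higher and Itga1, Itga8, Tns3, Sdc1 and Sdc4 lower. Of 19 metalloproteinases and inhibitors 4 were higher, among them Adamts5 (1.66 and 2.02) and Timp2 (1.42 and 1.58), and 4 lower, among them Mmp3 (-2.77 and -5.60) and Adamts9 (-4.39 and -3.53).

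Growth factor and TGF-beta genes were likewise divided, while chemokine, MHC class I and interferon genes past the threshold were nearly all lower. Of 29 growth factors and receptors 7 were higher, among them Pdgfc and Met, the hepatocyte growth factor receptor (3.11 and 1.59), and 9 lower, among them Igf1 (-3.26 and -2.87), Hgf (-2.28 and -3.06) and Vegfc (-2.64 and -3.53). Of 19 measured TGF-beta and activin genes 4 were higher and 3 lower, with medians of -0.17 and 0.01. Chrd, Bmp1, Fstl1 and Tgfbr2 were higher, and the lower ones included Grem1 (-8.95 and -3.29) and Bambi (-2.14 and -2.51). Of 20 chemokines and cytokines only Ptx3, a pentraxin of innate defence, was higher (2.22 and 1.99), and 8 were lower, among them Cxcl5 (-7.15 and -6.21) and Tnfsf8 (-7.72 and -3.26). In the receptor complex for LPS, Tlr4 was higher (1.02 and 1.15), whereas its co-receptors Cd14 (-3.59 and -2.16) and Ly96 (-1.25 and -2.45) were lower. Of 16 MHC class I presentation genes 9 were lower and none higher, with medians of -1.33 and -1.37, and of 21 interferon response genes 8 were lower and none higher, with medians of -0.84 and -1.60. Ribosomal and proliferation lists had no gene past the threshold.

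The shares of members and of other gated cells with proliferation transcripts had overlapping intervals in 67NR. After thinning to 2000 UMIs, cells with at least 2 UMIs of proliferation genes were 18.8% of members (13.1 to 25.6%) and 20.9% of the other cells (15.4 to 27.4%) in the stromal library, and in the second library 17.9% of members (8.91 to 30.4%) and 25.4% of the other cells (18.1 to 33.9%). Without thinning the shares were 84.2% of members and 84.8% of the other cells in the stromal library. In 4T1 members of the stromal library Top2a and Mki67, which mark dividing cells, gave 139 UMIs, all in 4 cells. In naive and LPS members of that library they gave 0, and in 67NR members 3. In the second library they gave 78 UMIs in 67NR members, 77 of them in 1 cell, 2 in 4T1 members and 4 in naive members.

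The gene differences seen in 67NR were also found in members of the other conditions, though not for every gene. Of the 500 genes higher in 67NR members, 375 of 465 measured were at least 2-fold higher in 4T1 members, 229 of 475 in LPS members and 310 of 428 in naive members of the stromal library. In the second library the counts were 424 of 490 in 4T1 and 307 of 441 in naive members. Of the 603 lower genes, 484 of 599 measured were at least 2-fold lower in 4T1, 396 of 595 in LPS and 389 of 588 in naive members of the stromal library, and 493 of 584 in 4T1 and 404 of 592 in naive members of the second. The median log2 ratio of the higher genes was 1.86 in 4T1, 0.99 in LPS and 1.64 in naive nodes of the stromal library. The conditions use separate cells, but members were chosen by the same 4 genes in each.

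Conditions were compared among members with edgeR's quasi-likelihood test on the UMI sums, with the library as a block, and p-values were adjusted by the Benjamini-Hochberg method over 11370 genes. Between 67NR and 4T1 members no gene passed (0%), by edgeR or by DESeq2, while 474 genes had an unadjusted p under 0.05. In simulated counts for this comparison the test recovered 95% of log2 changes of 2 and 10% of log2 changes of 1. The simulation gave every gene the same spread and changed only genes with enough UMIs in each of the compared sums. It does not cover low genes or genes whose UMIs lie in few cells.

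Between 67NR and naive members 2 genes passed, Cxcl2 higher and Cxcl13 lower (0.0088% of genes each), and 904 genes had an unadjusted p under 0.05. Cxcl2, a chemokine that attracts neutrophils, stood at 335 and 994 CPM in 67NR members and at 3.41 and 28.1 CPM in naive members, with no overlap. Its log2 difference was 5.31 ± 0.75 (SE), with an edgeR adjusted p of 0.0363. Its UMIs lay in few cells, 917 in 32 of 166 members and 1037 in 28 of 58 members of 67NR. Cxcl13, the chemokine that draws B cells into follicles, stood at 6.58 and 8.62 CPM in 67NR members and at 157 and 284 CPM in naive members, again with no overlap. Its log2 difference was -4.69 ± 0.59 (SE), with an edgeR adjusted p of 0.0186. In naive members its 46 UMIs of the stromal library lay in 8 cells and its 101 UMIs of the other library in 11 cells, 65.3% of them in 1 cell. With the stricter hashtag rule Cxcl13 stood at 5.0 and 5.8 CPM in 67NR members and at 19.8 and 469 CPM in naive members. Only 4 and 7 naive members were then left, and these levels carry no test. Without the members of the stromal library the adjusted p was 0.112 for Cxcl2 and 0.137 for Cxcl13, and without those of the myeloid and stromal library it was 0.388 for Cxcl2 and 0.326 for Cxcl13, with the direction kept. Without the library as a block neither passed (adjusted p of 0.487 each). In the other gated cells Cxcl2 stood at 852 and 1861 CPM in 67NR and at 239 and 133 CPM in naive nodes.

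For Cxcl13 the difference between 67NR and naive was not shared by the other gated cells. There it stood at 343 and 1380 CPM in 67NR and at 174 and 195 CPM in naive nodes. The log2 change in members minus that in the other cells was -6.63 ± 0.74 (SE; edgeR adjusted p of 0.00475), and Cxcl13 was the only gene with such a difference between 67NR and naive by this test, with 553 at an unadjusted p under 0.05. Between 4T1 and naive the same difference was -6.59 ± 0.74 (edgeR adjusted p of 0.00531), 1 of 3 genes that passed there (0.0264%). Cxcl13 in 4T1 stood at 19.9 and 22.4 CPM in members and at 675 and 3396 CPM in the other gated cells. With the stricter hashtag rule 4T1 members were not below naive members in the stromal library, at 21.8 against 19.8 CPM. In the second library they were, at 37.4 against 469 CPM. The difference between members and other cells was not tested under that rule.

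The levels of the rule genes in each condition, given above, carry no test. Fn1, which was not in the rule, stood at 12104 and 12165 CPM in 67NR members and at 5390 and 7712 CPM in naive members, with a log2 difference of 0.93 ± 0.20 (SE; edgeR adjusted p of 0.208). The other gated cells were likewise higher in 67NR, with Fn1 at 1434 and 1570 CPM against 626 and 1134 CPM in naive nodes. Among cells chosen by Dpp4 and Pi16 alone, Fn1 had a log2 difference of 1.36 between 67NR and naive (edgeR adjusted p of 0.116). The only call among these cells was 1 gene each for 67NR over naive and for 67NR over 4T1 (0.0089% of 11242 genes), Ccl21a both times, whose counts are uncertain and of whose UMIs in 67NR members of the second library 98.6% lay in 1 cell. For LPS over naive 4 genes passed (0.0356%), namely H2-D1, H2-K1, B2m and Ccl21a.

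Between 4T1 and naive members no gene passed by edgeR (0%), 733 had an unadjusted p under 0.05, and DESeq2 called 16. Il33, an alarmin cytokine of stromal cells, stood at 404 and 377 CPM in 4T1 members and at 177 and 138 CPM in naive members, with a log2 difference of 1.32 (edgeR adjusted p of 0.127). In 67NR members it stood at 403 and 379 CPM, also 1.32 ± 0.23 above naive (SE; edgeR adjusted p of 0.113). The other gated cells were likewise higher, with Il33 at 621 and 480 CPM in 67NR, 595 and 668 CPM in 4T1 and 177 and 181 CPM in naive nodes. Both tumour comparisons share the naive sums.

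LPS members had only 1 sum, in the stromal library, whose spread is assumed to be that of the other sums. Against naive members 7 genes passed, all higher (0.0616% of genes), with 542 at an unadjusted p under 0.05. H2-D1 and H2-K1, which encode MHC class I heavy chains, and B2m, their light chain, were the 3 carried by many cells. H2-K1 stood at 2448 CPM in LPS members and at 692 and 770 CPM in naive members (log2 1.75 ± 0.25 SE, edgeR adjusted p of 0.0248). H2-D1 stood at 6287 CPM in LPS members and at 1837 and 1703 CPM in naive members (1.70 ± 0.24 SE, edgeR adjusted p of 0.0248), and B2m at 4937 CPM in LPS members and at 1799 and 1549 CPM in naive members (1.50 ± 0.24 SE, edgeR adjusted p of 0.0429). No single cell held more than 5.83% of the LPS UMIs of these 3 genes. The other 4 rested on few cells. Csf2 had 9 UMIs in 1 LPS cell, and 1 cell held 87.5% of the Dnajc6 UMIs, 89.1% of those of Ccl19 and 76.4% of those of Clu. When the LPS member with the most Ccl21a UMIs and the naive member with the most Ccl5 UMIs were left out, H2-D1 and H2-K1 still passed, and B2m (adjusted p of 0.0527), Clu and Ccl19 did not. Csf2 and Dnajc6 also passed, but the cells that held most of their UMIs were others and stayed. Without the library as a block none of the 7 passed, with adjusted p of 0.139 for H2-K1, 0.213 for H2-D1 and 0.25 for B2m, and without the members of the second library none of the 7 remained and 4 other genes passed. In the other gated cells H2-D1 stood at 7762 CPM in LPS against 3342 and 2453 CPM in naive nodes, H2-K1 at 2882 against 1257 and 1197 CPM, and B2m at 5239 against 2613 and 2245 CPM. The difference between members and other cells in these 3 genes was not called (edgeR adjusted p of 1 each).

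**Figure D5:**
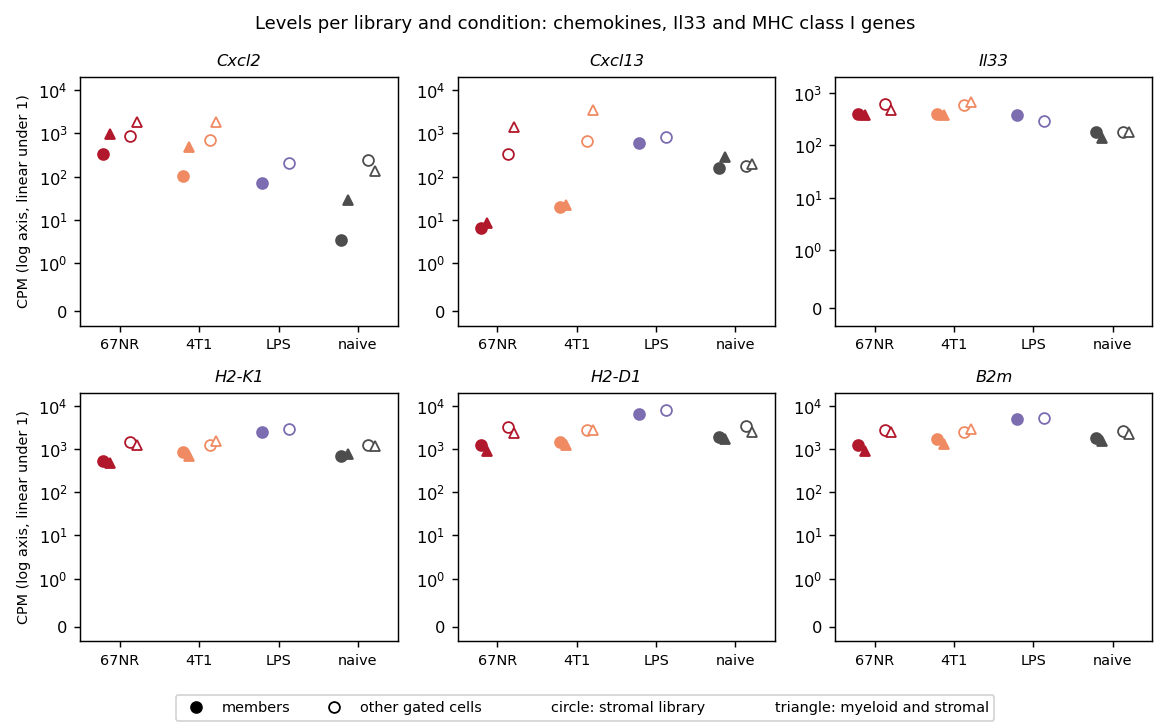
Levels in CPM (y axis, log scale, linear under 1) of Cxcl2, Cxcl13, Il33, H2-K1, H2-D1 and B2m by condition (x axis), with symbols as in the plot of the marker genes. Cxcl2 stood at 335 and 994 CPM in 67NR members and at 3.41 and 28.1 CPM in naive members, and H2-D1 at 6287 CPM in LPS members and at 1837 and 1703 CPM in naive members.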

How the data were processed

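Droplet single-cell gene libraries of sorted mouse axillary lymph nodes and their hashtag libraries were used. Raw UMI counts, whole numbers for each gene or hashtag in each barcode, are what the authors deposited. Cell Ranger 7.0 and the build mm10 are named in the submitters' processing notes, and its gene annotation is not given in the sources used here. Barcodes numbered 3507 in the stromal and 7823 in the myeloid and stromal library. Cells needed at least 500 UMIs and at most 10% mitochondrial UMIs (2540 and 6530 passed). A condition was given where the hashtag that names it had at least 10 counts and 3 times the next, and 7.36% and 17.1% of cells had none. No doublet caller was run. The hashtag rule removes doublets of 2 conditions only where the stronger hashtag is under 3 times the weaker. Doublets of 1 condition stayed, as did those of 2 conditions with hashtags of unequal strength. poly(I:C) was not analysed here.

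UMIs were summed per library, condition and class. Members over other gated cells are log2 ratios of CPM with exact conditional binomial 95% intervals, with no test, and in place of a sum of 0 a floor of 3 UMIs per group was used. In simulated counts of 9509 genes 95.45 to 95.99% of these intervals held the true ratio. Those counts were drawn with counting error alone, as the intervals assume. They do not show how far the intervals hold where the UMIs of a gene lie in few cells. To be measured a gene needed 50 or more UMIs in its higher group of the stromal library and 10 in that of the other (for gene lists, 20 in the stromal library). The 10 rule genes were left out of counts. Named genes are the 5 markers, the 12 highest and 12 lowest ratios past 2-fold in both libraries, ordered by the smaller in size of the 2 and with unnamed loci left out, and 2 to 4 members per list. Il33 and the genes called between conditions were named after their values were seen. The 14 sums of members and other cells entered 1 edgeR 4.0.16 fit (R 4.3.3, filterByExpr, TMM, glmQLFit and glmQLFTest, 5 residual degrees of freedom), with the library as a block because conditions of a library were prepared together. An adjusted p under 0.05 counted as passing. 67NR over 4T1 was planned, and the comparisons with naive, the cells chosen by Dpp4 and Pi16 and the difference between classes were added after the data were seen. In simulated counts of 67NR over 4T1 (11001 genes), with the same spread for every gene, edgeR made 0 false calls. DESeq2 1.42.0 was the other tool. Python 3.11.15 was used with pandas 2.3.3, scipy 1.17.1, numpy 2.4.6 and matplotlib 3.10.9. Promoter sequences came from RefSeq on GRCm38.p6, which held 6 of the genes looked for. Members and gene lists were chosen with earlier results of these data known.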

Additional observations from a re-analysis of the deposited data

Results flagged for a closer look

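The share of members differed between 67NR and 4T1 in opposite directions in the 2 libraries, by 18.7 percentage points in the stromal library and by -17.8 in the myeloid and stromal library. The difference between libraries was not tested, and members had weaker hashtags than the other gated cells in both.

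Some genes changed differently in members and in the other gated cells, by edgeR's test of that difference. For Cxcl13 it was -6.63 between 67NR and naive (adjusted p of 0.00475) and -6.59 between 4T1 and naive (adjusted p of 0.00531). Without the 2 cells that stood apart these were -6.75 (adjusted p of 0.00268) and -6.71 (adjusted p of 0.003). Those 2 cells were chosen by their Ccl21a and Ccl5 UMIs and not by Cxcl13. How far the Cxcl13 differences rested on the 1 naive cell with 65.3% of its UMIs in the second library was therefore not tested. Nor were they tested with the stricter hashtag rule, where Cxcl13 stood at 21.8 CPM in 4T1 and 19.8 CPM in naive members of the stromal library. Between 4T1 and naive the difference was -10.5 for Ccl5 and -7.39 for Samsn1 (adjusted p of 0.0338 each), and between LPS and naive it was 9.92 for Dnajc6 (adjusted p of 0.032). Of the naive UMIs in the myeloid and stromal library, 91.0% for Ccl5 and 90.9% for Samsn1 lay in 1 cell of 50618 UMIs, against a median of 15108. Without the 2 cells the differences were -7.46 for Ccl5 (adjusted p of 0.788), -4.19 for Samsn1 (adjusted p of 0.972) and 9.70 for Dnajc6 (adjusted p of 0.0652), although the cell with most Dnajc6 UMIs was not one of the 2.

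Cells that met the marker rule also lay outside the collagen, Ptprc and Pecam1 gates, more often than in naive nodes. They made up 11.7% of cells in 67NR, 5.21% in 4T1 and 7.21% in LPS, against 2.93% in naive nodes of the stromal library, and 2.83% in 67NR and 3.4% in 4T1, against 1.74% in naive nodes of the myeloid and stromal library. Of the 107 such 67NR cells in the stromal library 102 had a Pecam1 UMI, with a median of 4, and their median collagen count was 260 UMIs. Whether these were doublets with endothelial cells was not tested.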

How the results depend on the processing

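Of 464 named member-over-other ratios under the alternatives run, 462 kept their direction and their side of the threshold, and Duoxa2 in the myeloid and stromal library fell short of it with a hashtag at 10 times the next and with cells thinned to 2000 UMIs. Shares changed with the hashtag rule: at 10 times the next they were 26.9% in 67NR, 19.3% in 4T1, 21.0% in LPS and 4.94% in naive nodes of the stromal library, and 10.1% in 67NR, 24.5% in 4T1 and 12.5% in naive nodes of the other, and gene counts were 315 higher and 401 lower. Gates applied after thinning to 5000 UMIs gave 40.6% in 67NR and 15.3% in LPS of the stromal library. Thinning to 2000 UMIs gave 184 higher and 163 lower genes, and a 4-fold threshold 187 and 322. With 1 library alone, the counts were 706 to 983 higher and 731 to 1667 lower genes.

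Calls between conditions were few and depended on the fit. Without the gene filter edgeR called 59 genes between 67NR and 4T1, 204 between 67NR and naive, 125 between 4T1 and naive and 62 between LPS and naive. Without the library as a replicate block it called 0 between 67NR and naive and 0 between LPS and naive. Leaving out the members of 1 library gave 0 to 1 calls between 67NR and 4T1, 0 to 8 between 67NR and naive and 0 to 5 between 4T1 and naive, the higher number each time without the stromal library, and 4 between LPS and naive without the other library, none of them in the calls of the full fit. With member sums alone in the fit it called 7 between 67NR and naive and 3 between 4T1 and naive. DESeq2 called 29 between 67NR and naive, 16 between 4T1 and naive and 18 between LPS and naive. Without the 2 cells apart LPS kept 4, of which Csf2 and Dnajc6 rested on cells that stayed. Leaving out 1 library's members turned the direction of Rgs6 between 67NR and naive (-0.003181), between 4T1 and naive (-0.0114) and between 67NR and 4T1 (-0.2267), and of Mrgprg between 67NR and 4T1 (-0.1672). The cause of these changes was not tested. The gates after thinning, the fit of member sums alone, the fit without the 2 cells and the ratios without the Ptprc and Pecam1 gates were chosen after seeing the data. Depth limits low genes, and each test rests on 2 sums per condition or, for LPS, 1.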
